A study of Mus musculus with 16 samples.

Results

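Immediate early genes are the genes that cells switch on first, without new protein synthesis, when a growth factor, serum or stress signal reaches the nucleus. The 10 genes described here were taken by name (Fos, Fosb, Fosl1, Fosl2, Jun, Junb, Jund, Egr1, Atf3 and Ier2) from the 21938 protein-coding genes of the GENCODE M21 annotation, and all 10 were found. The rule that names them uses no measured value. They were examined in chromatin immunoprecipitation and sequencing (ChIP-seq) peak lists for RNA polymerase II (Pol II), taken with an antibody against its subunit RPB1, and for histone H2B carrying 1 ubiquitin (H2Bub1).

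The libraries came from cells with the genotype Atxn7l3+/+ (WT) and from Atxn7l3-/- cells, which lack ATXN7L3, the adaptor of the 3 related enzymes USP22, USP27X and USP51 that take ubiquitin off H2B. Both genotypes were of the strain DBA/2 x C57BL/6 and were given no further treatment. Mouse embryonic stem cells (mESCs) were grown with 15% foetal calf serum, leukaemia inhibitory factor, 1 µM of PD0325901, an inhibitor of the kinase MEK, and 3 µM of CH99021 (also written CHIR99021), an inhibitor of the kinase GSK3. Mouse embryonic fibroblasts (MEFs) came from E10.5 embryos and were grown in 10% foetal calf serum without the inhibitors. The deletion is carried by the whole animal from which both cell types were made, so it is not limited to 1 cell type. Of the 16 samples, the 8 with these antibodies were analysed, and each group was 1 library. No difference below therefore has a replicate check, no p-value is given, and the 95% intervals given cover no spread between libraries. Those of counts are exact binomial intervals, and those of medians are taken from the ordered values of the genes and cover the spread over these genes.

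The Pol II lists held 11963 to 45870 peaks and the H2Bub1 lists 19725 to 48952, and the number of reads behind them is unknown. In both cell types the Atxn7l3-/- list was the shorter for Pol II and the longer for H2Bub1. The cell type labels were checked against markers. Of 7 pluripotency genes, 6 had a Pol II promoter peak in each mESC list, none did in WT MEFs and 1 did in Atxn7l3-/- MEFs. Of 7 fibroblast genes, none had one in mESCs, 7 did in WT MEFs and 6 did in Atxn7l3-/- MEFs. The Pol II promoter folds of these fibroblast genes were 10.47 to 49.2 in WT MEFs (median 26.6) and 5.38 to 23.9 in Atxn7l3-/- MEFs (median 13.5), lower in Atxn7l3-/- at all 6 with a peak in both. Of all genes with a peak in both MEF lists, 32.3% had the higher fold in Atxn7l3-/-, so a lower fold there was common. The ratios of Atxn7l3-/- to WT at the 6 fibroblast genes ran from 0.369 to 0.622. The MEF lists differed in these markers, with 1 library each, and the part of this in the comparisons of MEF genotypes below was not tested. Of 6 genes that mark other cell types, 1 had one in each mESC list, none in WT MEFs and 1 in Atxn7l3-/- MEFs. Atxn7l3 had a promoter peak in all 4 Pol II lists, which does not check the genotype because the promoter lies outside the deleted part. Over the stretch from exon 2 to exon 12 of its longest transcript (chr11:102291898-102295059), which loxP sites flank in the targeting construct of the study, H2Bub1 covered 100% in WT mESCs and 13.0% in Atxn7l3-/- mESCs. In MEFs it covered 21.6% in WT and 19.6% in Atxn7l3-/-, too little in WT for a check. Pol II covered 20.7% in WT and 11.9% in Atxn7l3-/- mESCs, and 19.3% and 10.9% in MEFs, so peaks of both kinds reached into this stretch in the Atxn7l3-/- lists. The 4 Y-linked genes looked at had promoter peaks in WT MEFs only, so in MEFs the genotype and the sex of the embryos cannot be told apart. Cell type, medium and set of libraries cannot be told apart either.

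FOS and JUN family proteins pair through leucine zippers to form the transcription factor AP-1. FOS proteins need a JUN partner, whereas JUN proteins can also pair with each other and with ATF proteins. EGR1 is a zinc finger factor, ATF3 a leucine zipper factor of the ATF and CREB family, and IER2 a small nuclear protein. In fibroblasts these genes are the classical targets of serum, through the kinases MEK and ERK, the serum response factor and factors bound to cyclic AMP response elements (CREs). Polymerase is often held just after the start site of such genes and released by the signal. H2Bub1 is laid down behind elongating polymerase and is usually found in the transcribed part of a gene, downstream of the transcription start site (TSS).

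The genes are short. Their lengths ran from 1.52 kb (Ier2) to 47.7 kb (Atf3) and 8 of the 10 were under 10 kb. Ranges are given in the build mm10 (GRCm38). The Fos family genes were Fos at chr12:85473890-85477273 on the plus strand, Fosb at chr7:19302696-19310051 on the minus strand, Fosl1 at chr19:5447547-5455946 on the plus strand and Fosl2 at chr5:32135801-32157842 on the plus strand. The Jun family genes were Jun at chr4:95049034-95052222 and Junb at chr8:84974484-84978718, both on the minus strand, and Jund at chr8:70698949-70700616 on the plus strand. Egr1 lay at chr18:34859823-34864984 on the plus strand, and Atf3 at chr1:191170296-191218039 and Ier2 at chr8:84661331-84662852, both on the minus strand.

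Promoter sequences are shown for the 5 genes whose RefSeq start lay within 30 bp of an annotated start at which Pol II was measured below, since these are the stretches the promoter peaks sit on. The RefSeq table of promoters (GRCm38.p6) matched 7 of the 10 genes. Each run is given 5′ to 3′ in the direction of the gene and covers 250 bases before the RefSeq start and 50 from it on. Capitals mark matches on either strand to the letters TGACGTCA (the full CRE), TGACG (its half-site, which the full CRE contains), TGANTCA (the AP-1 site), GGGCGG (the GC box), TATAAA (the TATA box), CCAAT or the CArG box bound by serum response factor.

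Fos (chr12:85473640-85473939, plus strand): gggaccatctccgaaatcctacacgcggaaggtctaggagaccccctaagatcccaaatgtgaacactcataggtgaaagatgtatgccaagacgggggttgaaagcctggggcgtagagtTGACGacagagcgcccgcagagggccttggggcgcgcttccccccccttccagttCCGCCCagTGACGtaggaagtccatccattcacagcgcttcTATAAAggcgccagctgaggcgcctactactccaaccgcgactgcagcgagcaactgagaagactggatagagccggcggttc
Jun (chr4:95052173-95052472, minus strand): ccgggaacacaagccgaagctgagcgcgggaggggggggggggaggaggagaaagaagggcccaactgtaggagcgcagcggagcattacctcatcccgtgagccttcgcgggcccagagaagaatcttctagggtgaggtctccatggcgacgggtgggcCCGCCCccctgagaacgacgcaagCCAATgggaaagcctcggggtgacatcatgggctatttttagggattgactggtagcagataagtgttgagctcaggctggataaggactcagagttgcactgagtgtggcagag
Junb (chr8:84978699-84978998, minus strand): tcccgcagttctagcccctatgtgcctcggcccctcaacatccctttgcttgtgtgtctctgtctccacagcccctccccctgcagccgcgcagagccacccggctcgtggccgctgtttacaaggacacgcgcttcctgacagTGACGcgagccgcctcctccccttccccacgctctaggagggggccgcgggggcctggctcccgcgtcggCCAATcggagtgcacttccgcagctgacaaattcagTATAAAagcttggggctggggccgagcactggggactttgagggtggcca
Fosb (chr7:19309996-19310295, minus strand): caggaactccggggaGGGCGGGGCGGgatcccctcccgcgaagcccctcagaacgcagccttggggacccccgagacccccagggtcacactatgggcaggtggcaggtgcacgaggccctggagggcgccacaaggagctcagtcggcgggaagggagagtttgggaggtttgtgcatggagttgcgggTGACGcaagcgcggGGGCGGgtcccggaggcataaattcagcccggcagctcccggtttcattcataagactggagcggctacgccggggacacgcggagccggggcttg
Atf3 (chr1:191183284-191183583, minus strand): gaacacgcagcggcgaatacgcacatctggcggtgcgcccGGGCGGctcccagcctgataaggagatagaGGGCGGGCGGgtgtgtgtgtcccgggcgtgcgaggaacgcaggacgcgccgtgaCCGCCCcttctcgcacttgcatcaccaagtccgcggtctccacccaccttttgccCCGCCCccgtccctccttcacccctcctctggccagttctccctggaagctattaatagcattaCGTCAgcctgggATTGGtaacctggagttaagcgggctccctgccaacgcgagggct

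Of the 7 matched promoters, 4 (Fos, Fosb, Junb and Atf3) held the CRE half-site, which 20.8% of the 32851 promoters in the table held. The Fos half-sites began at positions -129 and -66 from the RefSeq start, the Fosb one at -60 and the Junb one at -106. A GC box was present in 5 of the 7, against 35.7% of all promoters, CCAAT in 3, against 37.4%, and TATAAA in 2 (Fos, from -33, and Junb), against 13.6%. None of the 7 held the full CRE, the AP-1 site or the CArG box in these 300 bases. Of all promoters in the table, 1.79% held the full CRE, 7.81% the AP-1 site and 1.63% the CArG box. The counts of the 7 include Fosl2 and Jund, whose RefSeq starts lie at 671 and -1210 bp from the GENCODE TSS. Their 300 bases do not hold the Pol II summits given below. These are matches of letters and were not tested as binding sites.

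To see where polymerase sat, the highest Pol II peak overlapping the 1000 bp on either side of the TSS was taken in each list. Its value is the fold of the peak, the pileup of reads at its summit over the background that the peak caller estimated there. Chromatin came from whole cultures, so fewer cells with polymerase and less polymerase per cell cannot be told apart. In WT mESCs, 5 of the 10 genes had such a peak (95% interval 18.7% to 81.3%), against 33.9% of all protein-coding genes. In Atxn7l3-/- mESCs it was 7 of 10 (34.8% to 93.3%), against 31.3%. In WT MEFs it was 9 of 10 (55.5% to 99.7%), against 54.1%, and in Atxn7l3-/- MEFs the same 9 genes, against 51.1%. Egr1 and Fosl2 had a promoter peak in Atxn7l3-/- mESCs but not in WT mESCs, as did 5.13% of all genes. None of the 10 had one in WT mESCs only (7.64% of all genes). In MEFs none had one in Atxn7l3-/- only (1.46%) or in WT only (4.41%).

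**Figure D1:**
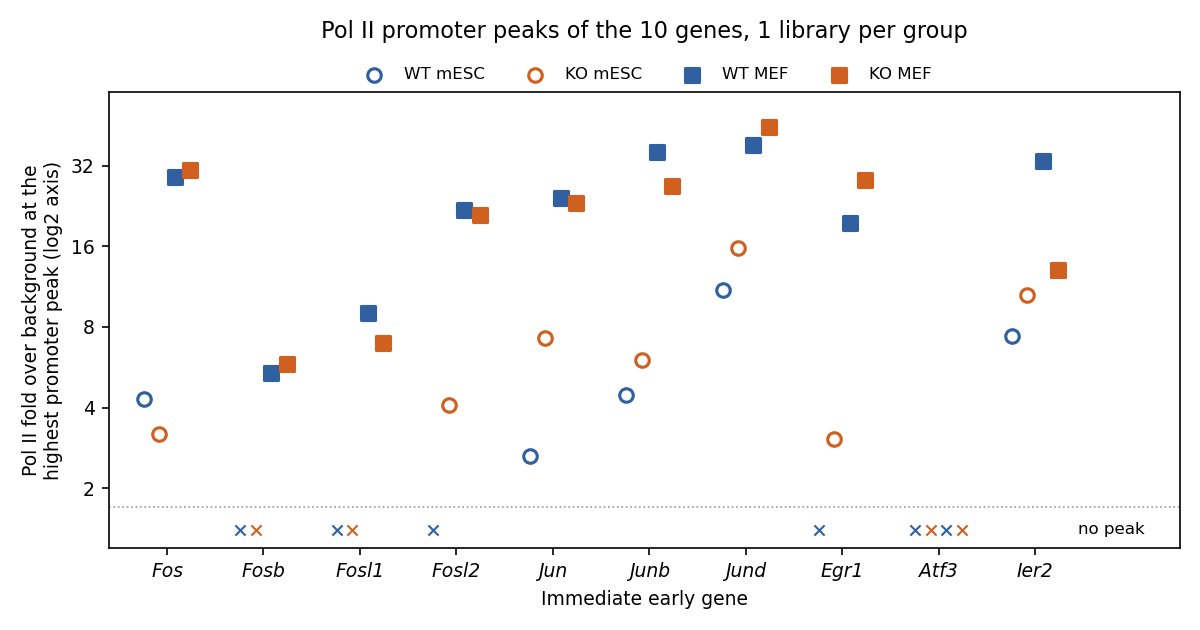
Fold of the highest Pol II promoter peak (log2 axis) at each of the 10 genes. Open circles are mESCs, filled squares MEFs, blue WT and orange Atxn7l3-/-, 1 library each, and crosses mark no peak. Every gene with a peak in both cell types has its MEF values above its mESC values of the same genotype, as do 97.4% of all such genes in WT and 96.3% in Atxn7l3-/-, and Atf3 has no peak at its annotated TSS in any list.

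Fos, the founding member of its family, had a promoter fold of 4.31 in WT mESCs and 3.20 in Atxn7l3-/- mESCs. In MEFs the values were 29.0 in WT and 30.7 in Atxn7l3-/-. The MEF values were close to each other and far above both mESC values, and the summits in MEFs lay 33 and 32 bp after the TSS.

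Fosb, whose protein also exists as a shorter stable form made by splicing, had no promoter peak in mESCs of either genotype. Its fold was 5.40 in WT MEFs and 5.83 in Atxn7l3-/- MEFs, the lowest MEF values of the 9 genes with a peak. The WT value came from a peak with its summit 1680 bp after the TSS. The WT peak over the start site itself, with its summit at -148 bp from the TSS, had a fold of 4.28.

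Fosl1, which encodes FRA1, was without a promoter peak in mESCs, and had folds of 9.03 in WT MEFs and 6.98 in Atxn7l3-/- MEFs. Fosl2, which encodes FRA2, had no promoter peak in WT mESCs and a fold of 4.10 in Atxn7l3-/- mESCs, with the summit at -256 bp from the TSS. That peak did not reach the narrower promoter from 100 bp before to 300 bp after the TSS. In MEFs, Fosl2 had a fold of 21.9 in WT and 20.9 in Atxn7l3-/-.

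Jun had the widest gap between genotypes in mESCs, with a fold of 2.64 in WT and 7.28 in Atxn7l3-/-, a ratio of 2.76. The WT peak stood above 2.1% of the promoter folds in its list and the Atxn7l3-/- peak above 87.3%. The WT peak was weak, and with the WT and Atxn7l3-/- lists reduced to equal numbers of peaks it was no longer listed. In MEFs the Jun fold was 24.2 in WT and 23.1 in Atxn7l3-/-.

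Junb, whose product often opposes that of Jun at AP-1 sites, had folds of 4.48 in WT mESCs and 6.04 in Atxn7l3-/- mESCs. In MEFs it had 36.0 in WT and 26.8 in Atxn7l3-/-. A further Junb start is annotated 2176 bp after the first. The WT mESC list had a peak of fold 8.11 with its summit 2288 bp after the TSS, above the Atxn7l3-/- peak of 5.56 at 2319 bp, so the genotype that was higher in mESCs was the reverse of that at the promoter.

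Jund, the most constantly expressed of the Jun genes, had the highest promoter fold of the 10 in each of the 4 lists. It was 10.98 in WT mESCs, 15.7 in Atxn7l3-/- mESCs, 38.1 in WT MEFs and 44.4 in Atxn7l3-/- MEFs. The last value stood above 99.9% of promoter folds in its list. The summits lay from -18 to 51 bp of the GENCODE TSS, whereas the RefSeq table places a Jund start at -1210 bp.

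Egr1, whose factor binds GC-rich promoters, had no promoter peak in WT mESCs and one of fold 3.05 in Atxn7l3-/- mESCs. That peak was weak, 281 bp wide and above 5.2% of the promoter folds in its list. In MEFs the Egr1 fold was 19.5 in WT and 28.4 in Atxn7l3-/-. In both MEF lists a single peak covered the whole gene with its summit 1494 and 1480 bp after the TSS. A further Egr1 start is annotated 1384 bp after the first, 110 and 96 bp before these summits. When the summit itself had to lie in the promoter of the first start, Egr1 had no promoter peak in MEFs.

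Ier2 had folds of 7.43 in WT mESCs and 10.53 in Atxn7l3-/- mESCs, and 33.4 in WT MEFs against 13.0 in Atxn7l3-/- MEFs. The last pair had a ratio of 0.389, the lowest of the 9 genes in MEFs. The summits of both MEF peaks lay within 60 bp after the TSS, at 57 and 44 bp.

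Atf3 had no peak at the TSS of its gene record, which is the most upstream of its annotated starts. Another annotated start lies 34699 bp further on, next to the RefSeq promoter printed above. There Pol II had folds of 6.12 in WT mESCs, 4.68 in Atxn7l3-/- mESCs, 21.7 in WT MEFs and 18.03 in Atxn7l3-/- MEFs. With any annotated start allowed, all 10 genes had a promoter peak in both MEF lists, against 57.7% of all genes in WT and 54.6% in Atxn7l3-/-.

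Over the members with a promoter peak, the median fold was 4.48 in WT mESCs (n = 5 genes) against 4.39 over all genes with a peak, and 6.04 in Atxn7l3-/- mESCs (n = 7) against 4.53. With any annotated start allowed, this order turned, to 6.77 in WT mESCs (n = 6) and 5.36 in Atxn7l3-/- mESCs (n = 8). In MEFs it was 24.2 in WT (n = 9, 95% interval 9.03 to 36.0) against 13.2, and 23.1 in Atxn7l3-/- (6.98 to 30.7) against 11.5. In each MEF list, 5 of the 9 genes stood above 90% of promoter folds. From the highest, the order in WT MEFs was Jund, Junb, Ier2, Fos, Jun, Fosl2, Egr1, Fosl1 and Fosb. With 1 library per group there is no spread between replicates to separate neighbours in this order.

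Between genotypes, the promoter fold was higher in Atxn7l3-/- at 4 of the 5 genes with a peak in both mESC lists, against 52.5% of all such genes. The exception was Fos. With any annotated start allowed it was 3 of 6, against 51.9%. The median log2 ratio of Atxn7l3-/- to WT was 0.50 against 0.03 over all genes, and the 5 values ran from -0.43 to 1.46, too few for a 95% interval. In MEFs 4 of 9 were higher in Atxn7l3-/- (Fos, Fosb, Jund and Egr1), against 32.3%. The median log2 ratio was -0.07 (-0.43 to 0.22) against -0.23. At 8 of the 9 genes the MEF fold differed between genotypes by less than 1.5 times in either direction, as it did at 70% of all genes with a peak in both lists, and Ier2 was the exception. In mESCs 4 of 5 were within that bound, against 78.2%, and Jun was not. The members' interval in MEFs includes the value over all genes.

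Beyond the promoter, Pol II peaks covered at least 90% of the length of 6 of the 10 genes in MEFs. These were Fosl2, Jun, Junb, Jund, Egr1 and Ier2, the same 6 in each genotype. The covered share of a gene is the percentage of its bases, from TSS to gene end, that lie in a peak. Of all genes, 2.61% passed in WT MEFs and 1.55% in Atxn7l3-/- MEFs. Short genes are covered more easily. Among genes under 10 kb, a comparison chosen after the data were seen, 6.78% passed in WT MEFs and 4.04% in Atxn7l3-/- MEFs, against 5 of the 8 members of that length in each. In mESCs only Ier2 passed, in both genotypes, against 0.492% of all genes in WT and 0.346% in Atxn7l3-/-.

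**Figure D2:**
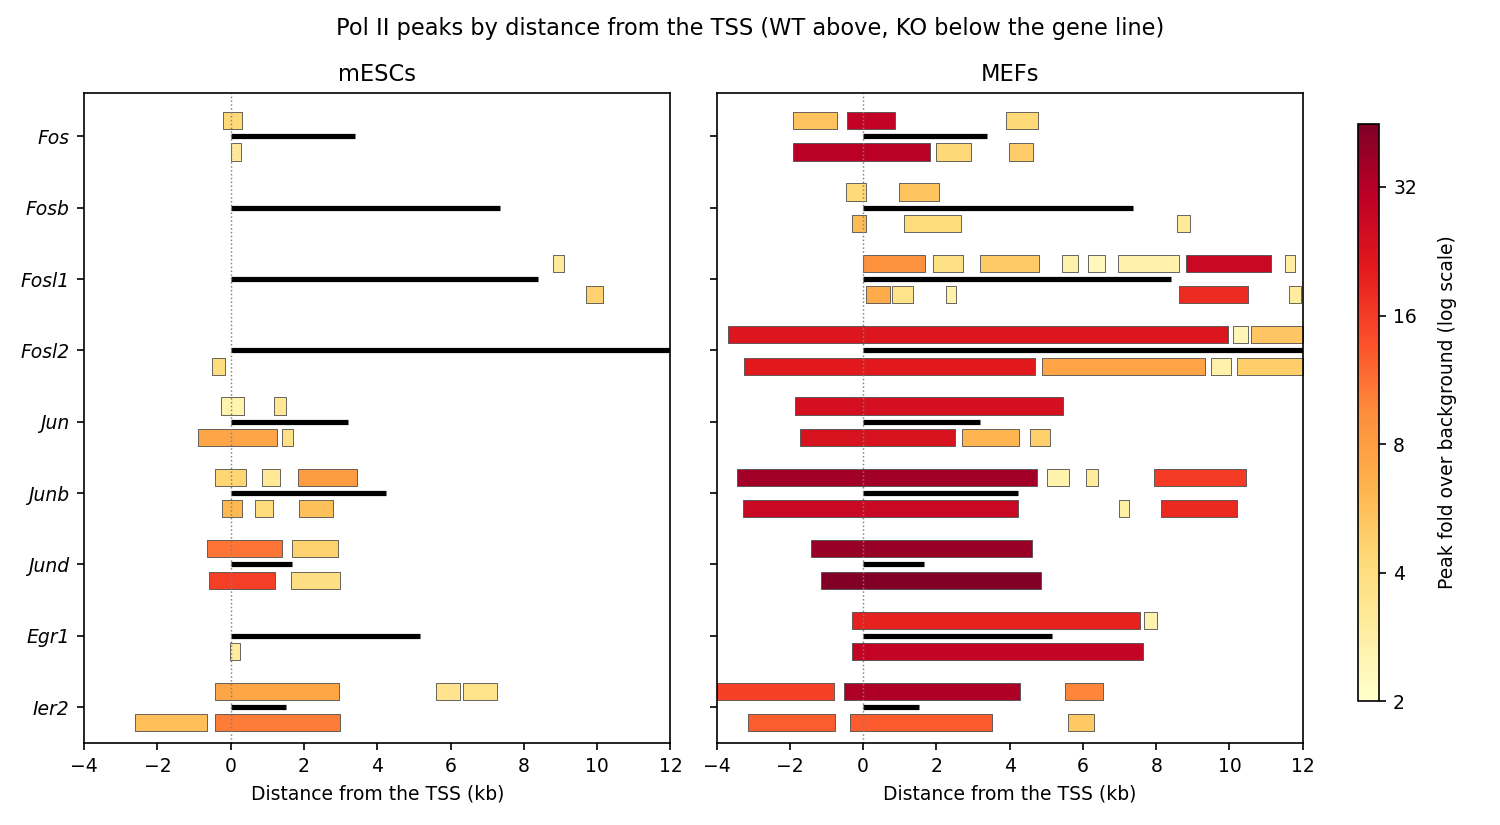
Pol II peaks by distance from the TSS in kb for 9 genes (Atf3 is left out because most of its peaks lie beyond the plotted range, at whose edges longer peaks and genes are clipped). The black line is the gene, peaks above it are WT and below it Atxn7l3-/-, the left panel is mESCs and the right panel MEFs, and the colour gives the fold on a log scale. In MEFs single peaks span Jun, Junb, Jund, Egr1 and Ier2 in WT and Junb, Jund, Egr1 and Ier2 in Atxn7l3-/-, while the WT Fos peak ends 866 bp after the TSS.

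Fos and Fosl1 were the exceptions to the likeness between genotypes. In WT MEFs the Fos promoter peak ran from -431 to 866 bp of the TSS, and a separate peak of fold 5.46 lay from -1910 to -713 bp. In Atxn7l3-/- MEFs 1 peak ran from -1916 to 1825 bp of the TSS, followed by a peak of fold 4.33 to 2952 bp. The covered share of Fos was 25.6% in WT and 82.2% in Atxn7l3-/-, although its summit fold was nearly the same. Fosl1 went the other way, with 76.6% in WT MEFs as 6 peaks and 18.3% in Atxn7l3-/- MEFs as 3. The 4 WT peaks between 3200 and 8624 bp after its TSS, of folds 2.36 to 5.06, had no counterpart on the gene in Atxn7l3-/- MEFs. Ccdc85b overlaps the end of Fosl1 on the other strand, so reads at that end cannot be given to either gene.

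As over all genes, most promoter peaks in MEFs were narrower in Atxn7l3-/-. The width was smaller in Atxn7l3-/- at 7 of the 9 genes, near the 75.7% of all genes with a peak in both. Fosl2 had 13652 bp in WT, the widest there, and 7923 bp in Atxn7l3-/-, where Egr1 had 7955 bp. Jun had 7314 and 4230 bp, and Junb 8175 and 7526 bp. The covered share was lower in Atxn7l3-/- at 3 of the 9 genes (Fosl1, Fosl2 and Jun), against 73% of all genes, but 4 genes stood at 100% in both lists and could not show a lower share. In mESCs it was lower at 3 of the 5 genes with a peak in both (Fos, Junb and Jund), against 68.5%. Jun went from 21.8% in WT to 49.4% in Atxn7l3-/-, and its promoter peak from 611 to 2174 bp.

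Pol II peaks also lay past the gene ends in MEFs. In the 5 kb after the end, peaks covered a median of 55.0% in WT (95% interval 0% to 83.6%) and 41.3% in Atxn7l3-/- (7.88% to 63.6%), against 0% over all genes in each. Among genes with a promoter peak the median was 55.1% for the 9 members in WT against 15.9% for all such genes, and 49.7% against 0% in Atxn7l3-/-. The share was lower in Atxn7l3-/- at 7 of the 10 genes, against 85.5% of all genes covered there in either list, and higher at Fosb, Jund and Atf3. In the first 2000 bp after the end the medians were 95.3% in WT and 85.6% in Atxn7l3-/-, and the share was lower at 4 genes, against 81.8%. In the 5 kb, Junb went from 54.9% to 27.7% and Ier2 from 75.2% to 54.2%. For Fosl1, Junb, Jund and Fosb other genes lie in that window (Fibp and Ccdc85b, Prdx2 and Rnaseh2a, Iqcn, and Gm26802), and for Jun the non-coding Gm12703 does. The antisense gene Junos starts 688 bp after the Jun TSS and Gm11175 lies across Jund, and ChIP reads carry no strand. In mESCs the downstream median was 0% in both genotypes, and only Ier2, Jund and Fosl1 were covered at all, with a lower share in Atxn7l3-/- at 1 of these 3 (Ier2), against 83.8%.

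Peaks more than 1000 bp from any annotated gene were also seen within 50 kb of these starts, at 6 genes in WT mESCs (14.5% of all genes), 3 in Atxn7l3-/- mESCs (8.55%), 8 in WT MEFs (28%) and 7 in Atxn7l3-/- MEFs (19.4%). The highest was at Ier2, with a fold of 9.95 in WT MEFs and 5.22 in Atxn7l3-/- MEFs at 5969 and 5860 bp after the TSS, and Ier2 had 4 in each mESC list. Fos had 4 such Pol II peaks in WT MEFs and 3 in Atxn7l3-/- MEFs, the highest with a fold of 6.80 and 5.90 at 12380 and 12402 bp after the TSS. Egr1 had 3 and 4, the highest with a fold of 8.60 and 7.32 at 27454 and 27486 bp. In WT mESCs Egr1 had a peak of fold 3.61 at 27570 bp. Fos had none of these peaks in mESCs.

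H2Bub1 was present on nearly all of the genes. A broad peak touched 9 of the 10 in WT mESCs (53.6% of all genes), all 10 in Atxn7l3-/- mESCs (60.8%), 8 in WT MEFs (30.4%) and all 10 in Atxn7l3-/- MEFs (53%). The gene without H2Bub1 in WT mESCs was Fosb, and those without it in WT MEFs were Fosb and Atf3. Some of these peaks had low scores. With a -log10 q of at least 3 only Jun, Junb and Ier2 kept a peak in WT MEFs, against 9 of the 10 in Atxn7l3-/- MEFs, and 5.52% and 48.1% of all genes. In mESCs 6 genes kept one in WT and 7 in Atxn7l3-/-, against 21.3% and 44.0% of all genes.

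**Figure D3:**
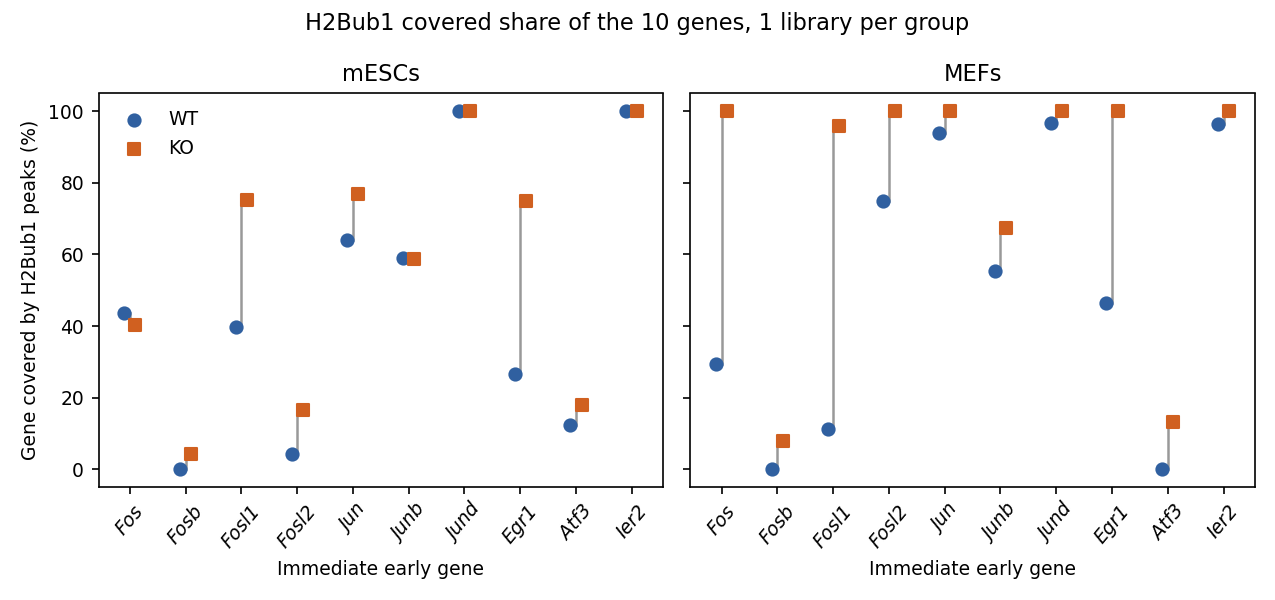
Percentage of each gene covered by H2Bub1 peaks in mESCs (left) and MEFs (right). Blue circles are WT and orange squares Atxn7l3-/-, 1 library each, with a grey line joining the pair. All 10 MEF pairs have the higher value in Atxn7l3-/-, with Fos, Fosl1 and Egr1 furthest apart, whereas in mESCs Egr1 and Fosl1 are furthest apart.

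In MEFs the covered share was higher in Atxn7l3-/- at all 10 genes, and so it was at 98.7% of all genes with a peak in either list, so these genes did not stand apart in direction. The Fos share was 29.5% in WT and 100% in Atxn7l3-/-. The Fosl1 share was 11.3%, all of it where Ccdc85b overlaps, and 95.9%, and the Egr1 share 46.3% and 100%. These 3 had gains of 53.7 to 84.7 percentage points. The Fosl2 share was 75.0% in WT and 100% in Atxn7l3-/-, and the Junb share 55.3% and 67.5%. The Jun, Jund and Ier2 shares were already 93.9%, 96.9% and 96.5% in WT and were 100% in Atxn7l3-/-. The Fosb share was 0% and 7.87% and the Atf3 share 0% and 13.2%, the lowest of the 10. The median difference was 12.7 percentage points (3.55 to 70.5) against 34.4 over all genes, and a gene near 100% in WT could not gain more. The low median came with low-scoring WT calls, and at the stricter q it was 95.9 points over the 9 genes with a peak (6.05 to 100) against 42.5 over all genes, since Fos, Fosl2, Jund and Egr1 then went from 0% to 100%. H2Bub1 covered every base of 6 genes in Atxn7l3-/- MEFs (5.75% of all genes, 12.2% of those under 10 kb) and of none in WT MEFs (0.196%).

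Without the first 1000 bp of each gene, the share in Atxn7l3-/- MEFs was higher at 6 of the 9 genes with a peak there, against 97.9%. Jun, Jund and Ier2 were at 100% in both genotypes and Fosb at 0% in both. The mean fold of the H2Bub1 peaks on the gene was also higher in Atxn7l3-/- at all 8 genes with a peak in both MEF lists, against 82.4% of all such genes. Jund had 2.89 and 6.02, Fosl2 3.07 and 5.31, Jun 3.86 and 6.61, and Ier2 3.48 and 3.49. The fold of Ier2 was thus practically equal in the 2 lists, while that of Jund was 2.09 times higher in Atxn7l3-/-. These folds average whole peaks, also beyond the gene. The Ier2 peak was 2311 bp long in WT and 9097 bp in Atxn7l3-/-, and the Jund peak 2163 and 5924 bp.

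In mESCs the picture was mixed. The covered share was higher in Atxn7l3-/- at 6 of the 10 genes, against 83.6% of genes with a peak in either list, and lower at Fos and Junb. Jund and Ier2 were at 100% in both. The largest differences were at Egr1, with 26.6% in WT and 75.0% in Atxn7l3-/-, and at Fosl1, with 39.8% and 75.1%. Where Ccdc85b overlaps the end of Fosl1, H2Bub1 cannot be given to either gene. The Jun share was 64.1% and 76.9%, the Fosl2 share 4.36% and 16.6%, and the Atf3 share 12.5% and 18.1%. The Fos share was 43.7% in WT and 40.2% in Atxn7l3-/-, and the Junb share 59.0% and 58.7%, the smallest differences apart from the tied genes. With a -log10 q of at least 3, Fos had 0% and 8.07%, so its order turned, and Egr1, Fosl2 and Fosb had no peak in either. The share was then higher in Atxn7l3-/- at 4 of the 7 genes with a peak. All bases were covered at 2 genes in each genotype, against 1.47% of all genes in WT and 4.95% in Atxn7l3-/-. The mean fold was higher in Atxn7l3-/- at 5 of the 9 genes with a peak in both, against 65.8%. Jun had 3.47 and 5.2, and Ier2 5.90 and 3.83, the pair furthest in the other direction. Each value averages whole peaks, also beyond the gene. The Ier2 peak was 6054 bp long in WT and 16467 bp in Atxn7l3-/-, so its values cover unlike stretches.

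H2Bub1 also differed in position. In WT MEFs the first edge of H2Bub1 lay after the TSS at all 8 genes with a peak. It was 20 bp after the TSS at Junb, 52 at Jund, 54 at Ier2, 193 at Jun, 412 at Fos, 683 at Fosl2, 1499 at Egr1 and 7454 at Fosl1, where the peak lies wholly within the overlapping Ccdc85b and cannot be given to either gene. In Atxn7l3-/- MEFs the H2Bub1 peak began upstream of the TSS at 7 genes, at -1164 bp at Jund, -1255 at Egr1, -1506 at Jun, -1633 at Fos, -2753 at Junb, -3694 at Fosl2 and -5398 at Ier2. At Fosl1 it began 343 bp and at Fosb 405 bp after the TSS. The WT edge of Egr1, at 1499 bp, lay just after its further annotated start at 1384 bp, near its MEF Pol II summits.

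**Figure D4:**
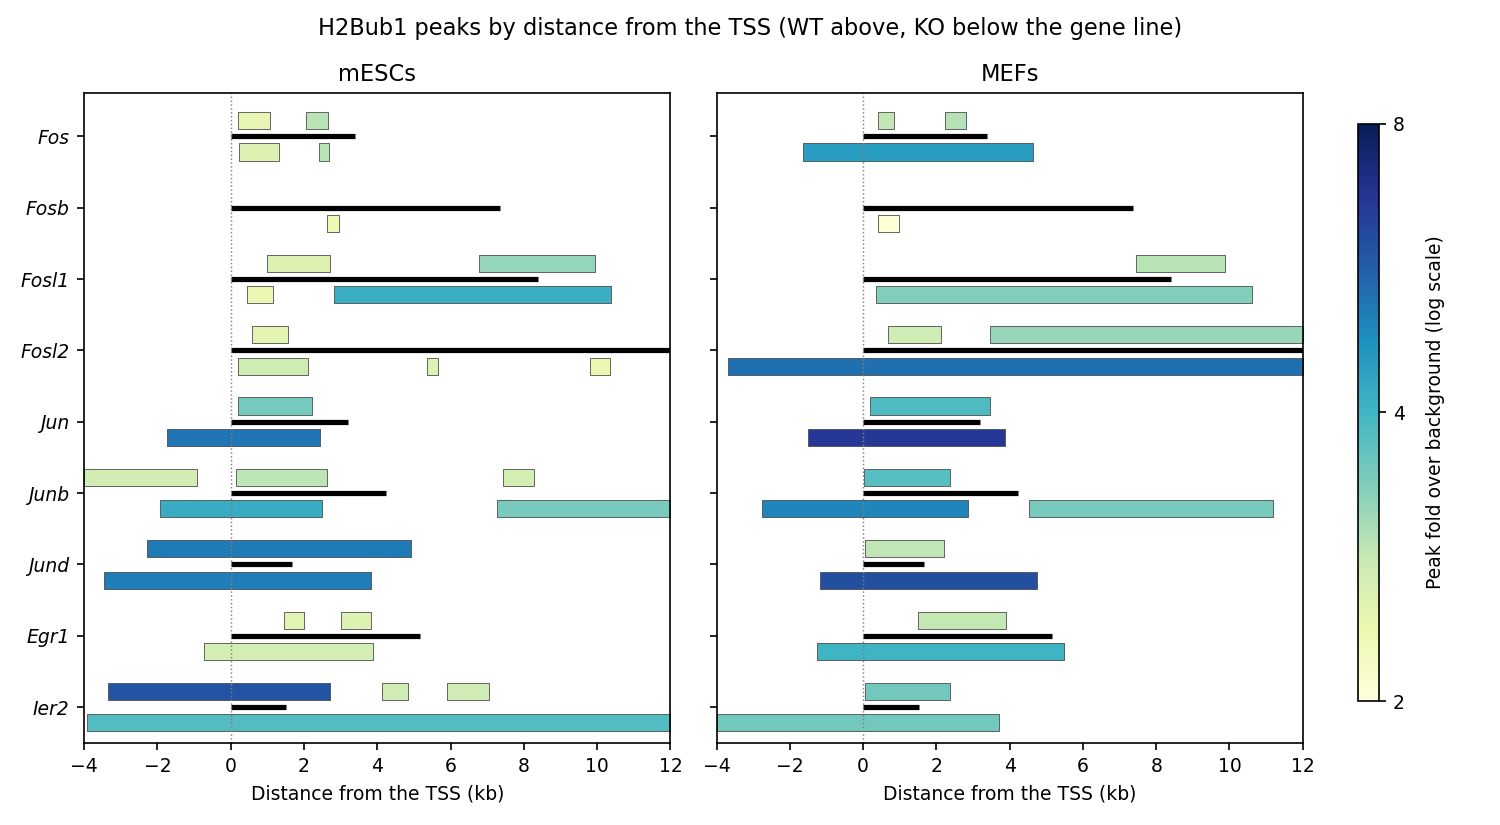
H2Bub1 peaks by distance from the TSS in kb for 9 genes (Atf3 is left out because its peaks lie beyond the plotted range, at whose edges longer peaks and genes are clipped). The black line is the gene, peaks above it are WT and below it Atxn7l3-/-, the left panel is mESCs and the right panel MEFs, and the colour gives the fold on a log scale. In MEFs the WT peaks start after the TSS, and the Atxn7l3-/- peaks of Fos, Fosl2, Jun, Junb, Jund, Egr1 and Ier2 extend to its left.

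The 1000 bp before the TSS held H2Bub1 at none of the 10 genes in WT MEFs (0% to 30.8%), against 5.05% of all genes, and at 7 of 10 in Atxn7l3-/- MEFs (34.8% to 93.3%), against 35.7%. At each of the 7 all 1000 bp were covered. Where both MEF lists had Pol II at the promoter, it was 0 of 9 in WT, against 9.77%, and 7 of 9 in Atxn7l3-/-, against 69.6%, so beside other genes with polymerase the Atxn7l3-/- count was near the background. The count was 7 also with equal numbers of peaks and with the stricter q.

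In mESCs H2Bub1 lay before the TSS at 3 genes in WT (Junb, Jund and Ier2), against 20.5% of all genes, and at 5 in Atxn7l3-/- (these and Jun and Egr1), against 40%. At the 5 genes where both mESC lists had Pol II at the promoter it was 3 in WT, against 52.5%, and 4 in Atxn7l3-/-, against 84.3%. Jun had none before its TSS in WT and 100% in Atxn7l3-/-, Junb 7.60% (the end of a separate upstream peak, lost at the stricter q) and 100%, and Egr1 0% and 72.1%. Fos had none in either genotype. The Ier2 domain of Atxn7l3-/- mESCs was the longest of the 10 genes in mESCs and ran from -3927 to 12539 bp of the TSS. At Atf3 the H2Bub1 peaks lay around the later start. They began 34725 bp after the first TSS in WT mESCs, 32311 bp in Atxn7l3-/- mESCs and 34830 bp in Atxn7l3-/- MEFs, beside the annotated start at 34699 bp.

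The values of mESCs and MEFs were then set side by side. In WT cells 4 genes (Fosb, Fosl1, Fosl2 and Egr1) had a Pol II promoter peak in MEFs only, against 22.0% of all genes, and none in mESCs only. In Atxn7l3-/- cells it was 2 (Fosb and Fosl1), against 21.4%. The Pol II covered share was higher in MEFs at 9 genes in WT, with Ier2 at 100% in both, against 56.1% of all genes. In Atxn7l3-/- cells it was higher in MEFs at 8 genes, against 53.2%, with Ier2 again at 100% in both and Atf3 at 4.35% in mESCs and 3.59% in MEFs. The H2Bub1 share went both ways in WT cells, higher in MEFs at Fosl2, Jun and Egr1 (14.3% of all genes) and lower at 6 genes (41.6%). In Atxn7l3-/- cells it was higher in MEFs at 7 genes (34.3%) and lower at Atf3 (27.9%). With a -log10 q of at least 3, Fosl2 and Egr1 had no H2Bub1 peak in either WT list. Of the WT shares only that of Jun was then higher in MEFs.

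The pathway around these genes was followed in lists of 46 other immediate early genes and of 28 genes for kinases, upstream factors and dimer partners. Of the 46, a Pol II promoter peak was present at 33 in WT mESCs, 30 in Atxn7l3-/- mESCs, 44 in WT MEFs and 43 in Atxn7l3-/- MEFs, against the 33.9%, 31.3%, 54.1% and 51.1% of all genes given above. The median fold in WT MEFs was 23.6. The 3 highest there were Zfp36l1, which encodes a protein that speeds mRNA decay, with 47.1 in WT and 23.2 in Atxn7l3-/-, the stress gene Gadd45g with 45.6 and 22.3, and Rhob, for a small GTPase, with 42.6 and 17.1. The gene with a promoter peak in 1 MEF genotype only was Egr2, a relative of Egr1, with 4.28 in WT. The fold was higher in Atxn7l3-/- at 20 of 43 in MEFs, against 32.3% of all genes, and at 19 of 30 in mESCs, against 52.5%. The H2Bub1 share was higher in Atxn7l3-/- MEFs at 40 of 43, against 98.7%, and lower at none. The rest were at 100% in both MEF lists and could not rise. H2Bub1 lay before the TSS at 8 of the 46 in WT MEFs and at 35 in Atxn7l3-/- MEFs, against 5.05% and 35.7% of all genes and 9.77% and 69.6% of those with Pol II at the promoter in both.

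Of the 28 signalling and partner genes, 24 had a Pol II promoter peak in each MEF list, and 19 and 20 in WT and Atxn7l3-/- mESCs, against 54.1% and 51.1% of all genes in MEFs and 33.9% and 31.3% in mESCs. The 3 highest in WT MEFs were Map2k2, which encodes the kinase MEK2, with 39.1 in WT and 37.2 in Atxn7l3-/-, Atf4, the factor of the integrated stress response, with 32.03 and 28.9, and Elk4, a partner of serum response factor, with 29.1 and 37.5. The fold was higher in Atxn7l3-/- at 5 of 24 in MEFs, against 32.3%, with a median log2 ratio of -0.23, which is that of all genes. H2Bub1 covered more of the gene in Atxn7l3-/- MEFs at all 26 with a peak in either list, against 98.7% of all genes.

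The genes whose 8 values came nearest to the median of the 10 were Fam207a, Leprotl1, Sema4c, Akr1a1 and Ssbp3. Likeness was the distance over the 4 log2 promoter folds, with no peak set to 0, and the 4 H2Bub1 shares, each in units of its standard deviation over all genes, and these genes lay at 0.969 to 1.14. Of the 10 themselves, Egr1 was nearest at 1.01 and Atf3 furthest at 5.87, its 4 folds set to 0 because its Pol II lies at the later start, and Fosb, Jund and Ier2 were also over 4 away. The 10 genes were thus spread widely in these measures, from Fosb with little Pol II and H2Bub1 to Jund and Ier2 with much of both.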

How the data were processed

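Per the labels and the study's methods, cells were fixed, chromatin was sheared, and the buffers held N-ethylmaleimide. The submitters' processing notes name bcl2fastq 2.17.1.14, Bowtie 1.0.0 and MACS2 2.1.1.20160309 with the build mm10. The authors called narrow peaks for Pol II and broad peaks for H2Bub1 in each library alone. Per the study's methods, samples were normalised before peak calling, Pol II by the total of mapped reads and H2Bub1 by reads in intergenic regions. The control and thresholds of the calls are not given in the sources used here. The deposited fold is a linear ratio over the background estimated by the peak caller, taken at the summit of a narrow peak and as an average over a broad one, so it gives no absolute level. The deposited -log10 p and -log10 q rank the peaks. A library with more reads lists more and wider peaks, and the number of reads entering each call is not given in the sources used here.

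Peaks were set 1-based against GENCODE M21 on 21 chromosomes in Python 3.11.15 (scipy 1.17.1 for intervals, numpy 2.4.6 for arrays, pandas 2.3.3, and matplotlib 3.10.9 for plots). An overlap of 1 bp counted. Functions were tested on simulated peaks. Medians have order statistic intervals. The main counts, medians and differences of the members were repeated, each with those of the following that bear on it: lists reduced to a -log10 q of 3 or more, with both lists of a pair at the length of the shorter, a promoter from 100 bp before to 300 bp after the TSS, the summit in the promoter, any annotated start, 2000 bp downstream, a gene call at 10% of the gene, the gene without its first 1000 bp, and background genes of the members' lengths. Genes under 10 kb were added as a background after seeing the data.

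The genes and lists were chosen with earlier results of these data known. Named were all 10 members, in each list the 3 highest promoter folds of WT MEFs and genes with a promoter peak in 1 MEF genotype only, and the 5 most similar genes.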

Additional observations from a re-analysis of the deposited data

Results flagged for a closer look

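Some genes had opposite directions between genotypes in the 2 cell types. Each value rests on 1 library per group, and the difference was not tested. For the log2 ratio of the Pol II promoter fold, Atxn7l3-/- over WT, Jun had 1.46 in mESCs and -0.07 in MEFs, a difference of 1.53, but its weak WT peak in mESCs was not listed with equal numbers of peaks. Junb had 0.43 and -0.43, a difference of 0.86, but with any annotated start its mESC value was -0.43, so the directions no longer differed. Ier2 had 0.50 and -1.36, a difference of 1.86. Fos had -0.43 and 0.08, a difference of -0.51. For the H2Bub1 covered share, Atxn7l3-/- minus WT, Fos had -3.52 percentage points in mESCs and 70.5 in MEFs, a difference of -74.0, but with a -log10 q of at least 3 its mESC value was 8.07 points, in the direction of MEFs. Junb had -0.28 and 12.2 points, a difference of -12.5.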

How the results depend on the processing

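Of 144 alternatives for the counts and medians over the 10 genes, 136 stayed within 1.5 times the main count or within the interval (with 5 genes, the range) of the main median. With 2000 bp in place of 5000 bp after the gene end, the median Pol II share was 95.3% in WT MEFs and 85.6% in Atxn7l3-/- MEFs, and the share was lower in Atxn7l3-/- at 4 genes in MEFs and 0 in mESCs. With a -log10 q of at least 3, 3 genes had H2Bub1 in WT MEFs, the median gain in H2Bub1 share in MEFs was 95.9 percentage points, and the H2Bub1 share was higher in WT MEFs than in WT mESCs at 1 gene. Without the first 1000 bp of each gene, the H2Bub1 share was higher in Atxn7l3-/- MEFs at 6 genes, since 3 were at 100% and 1 at 0% in both genotypes. For single genes, 2 of 128 alternatives turned a direction. The difference in the H2Bub1 share of Fos in mESCs was 8.07 percentage points with a -log10 q of at least 3. The log2 Pol II ratio of Junb in mESCs was -0.43 with any annotated start. The cause was not tested. No paired analysis was possible because each group is 1 library and the result comes from no test. Depth is unknown, so a missing peak is not shown to be absent binding.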
